A study of Mus musculus with 16 samples.

Results

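Alpha-class glutathione transferases were followed in mouse liver through the 6 genes of the deposited gene table, of 22612 in all, that carry the symbols Gsta1, Gsta2, Gsta3, Gsta4, Gm3776 and Gm10639. All 6 were found, each as 1 row. The samples were 16 RNA-seq libraries of whole liver from male C57BL/6 mice, and the labels name no transgene or deleted allele in any group. Mice were bought at 7 weeks of age, kept for 1 week before the diets began, and fed for 16 weeks. The chow group received chow (11% of energy from fat) and the high-fat group a high-fat diet (58%). The chow-alternating group changed between high-fat diet and chow every 2 weeks, and the ketogenic-alternating group changed in the same way between high-fat diet and ketogenic food with 90.5% fat energy. The labels count 6 mice to a group, of which 4 libraries each were deposited; livers were taken after an overnight fast, and the labels do not give which diet an alternating group ate last. Whether libraries and animals match one to one is not stated, and p-values below therefore describe only how these libraries scatter, which may be technical.

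Glutathione transferases join the tripeptide glutathione to electrophilic compounds, which makes them more soluble and marks them for export. The alpha class is a major part of the cytosolic enzyme in liver and also reduces organic peroxides that arise from fatty acids. Gsta1 and Gsta2 are known as genes that foreign compounds and antioxidants induce through the transcription factor NRF2, Gsta3 for conjugation of the aflatoxin epoxide in mice, and Gsta4 for conjugation of 4-hydroxynonenal, an aldehyde made when lipids are oxidised. Gm3776 and Gm10639 are gene models of the same family that carry no functional name.

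Of the 6 genes, 5 lie together on chromosome 9 of mm10 and Gsta3 lies on chromosome 1 (21240589 to 21265661, plus strand). In the deposited coordinates Gsta4 (78182774 to 78205955), Gsta1 (78230656 to 78242684), Gm3776 (78257129 to 78269166) and Gm10639 (78289923 to 78305525) follow each other on the plus strand, and Gsta2 (78331018 to 78347158) faces them on the minus strand. Each is annotated as protein-coding in GENCODE M21. From the start of Gsta1 to the end of Gsta2 the 4 neighbours Gsta1, Gm3776, Gm10639 and Gsta2 span 116.5 kb. Between the start of Gsta4 and the end of Gsta2 the table holds no other gene than Omt2a and Omt2b, both at 0 TPM in all 16 libraries.

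The stretch below is shown because it lies at the starts of all 4 neighbours and shows how little they differ. Near the annotated starts the 4 genes share it with few changes, in RefSeq sequence on GRCm38.p6 (mm10), 5′ to 3′ on each gene's own strand. Capitals mark the letters GCGTG, the core of the element that the aryl hydrocarbon receptor binds.
Gsta1: ttactaaaggaGCGTGcacactcctctgga
Gm3776: ttactaaagtaGCGTGcacactcctctgga
Gm10639: ttactaaagtatcgtgcacactcctctgga
Gsta2: ttactaaagtaGCGTGcacactcctctgga
Counted from 1 at the first base shown, Gm3776 and Gsta2 each differ from Gsta1 by G10T, and Gm10639 by G10T and G12T, the latter inside the core. In windows from 250 bases before to 50 after each RefSeq start, Gsta1 and Gm3776 were 98.95% identical over 287 aligned bases, whereas Gsta1 and Gsta2 were 79.6% identical over 289. GCGTG on either strand was found in 32.4% of the 32851 promoter windows in the table, so its presence in 3 of the 4 neighbours is only a description. The core of the antioxidant response element, the site that NRF2 binds, was searched as TGACNNNGC on both strands and occurred in 12.4% of all windows. It was not found in these windows of the 4 neighbours, which says nothing of sites outside them, and was found in that of Gsta3. For comparison, the windows of Gsta1 (chr9:78230419-78230683, plus strand), Gsta2 (chr9:78347131-78347395, minus strand) and Gsta3 (chr1:21240335-21240599, plus strand) are printed from 250 bases before to 15 after the RefSeq start, with matches to either set of letters in capitals. RefSeq windows were found for 5 of the 6 genes, all but Gsta4. The motifs were chosen after the sequences had been read.
Gsta1: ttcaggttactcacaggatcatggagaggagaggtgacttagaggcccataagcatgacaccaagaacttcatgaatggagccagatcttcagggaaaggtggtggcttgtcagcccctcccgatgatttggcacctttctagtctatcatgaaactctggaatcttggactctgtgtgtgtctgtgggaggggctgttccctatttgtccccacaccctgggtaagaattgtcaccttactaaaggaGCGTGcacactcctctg
Gsta2: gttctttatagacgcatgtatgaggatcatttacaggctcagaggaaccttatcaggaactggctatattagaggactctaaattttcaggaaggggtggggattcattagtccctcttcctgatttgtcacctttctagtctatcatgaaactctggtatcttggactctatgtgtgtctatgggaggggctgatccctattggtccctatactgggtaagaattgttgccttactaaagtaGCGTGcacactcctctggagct
Gsta3: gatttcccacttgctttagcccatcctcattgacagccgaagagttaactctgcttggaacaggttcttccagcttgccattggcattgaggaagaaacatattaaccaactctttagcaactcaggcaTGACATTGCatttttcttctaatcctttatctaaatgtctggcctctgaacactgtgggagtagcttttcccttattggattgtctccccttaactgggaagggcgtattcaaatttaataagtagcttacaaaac

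The mRNAs of the neighbours are close to identical, and this bears on each value below. The main transcripts of Gsta1 and Gm3776 were 99.5% identical over 874 aligned bases, with 4 substitutions (G10T, T40G, T122C and C688T, the Gsta1 base first, counted from the 5′ end of the Gsta1 transcript). Of all windows of 150 bases, the read length, 73.7% in Gsta1, 69.2% in Gm3776, 26.8% in Gsta2 and 19.0% in Gm10639 also occurred unchanged in another member. No such window of Gsta3 or Gsta4 did. RSEM assigns shared reads to one copy or another by estimation. The split among the 4 neighbours is therefore uncertain, and their summed TPM is given beside them. Gsta3 and Gsta4 carry no such doubt with respect to the other members.

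Values are TPM, transcripts of a gene in every 1000000 transcripts of a library, scaled by transcript length, so levels can be compared between genes. In chow liver Gsta3 was the most abundant member at 1708 ± 339 TPM (SD, n = 4), followed by Gsta4 at 201 ± 48.5, Gsta2 at 188 ± 81.6, Gsta1 at 45.8 ± 26.7, Gm3776 at 24.2 ± 18.2 and Gm10639 at 9.55 ± 5.03 TPM. The ranges of Gsta4 and Gsta2 over the chow libraries overlapped, as did those of Gsta1 and Gm3776. Gsta3 alone made up 78.6% ± 5.83 of the 6-gene total in chow and 95.9% ± 1.45 in high-fat liver.

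**Figure D1:**
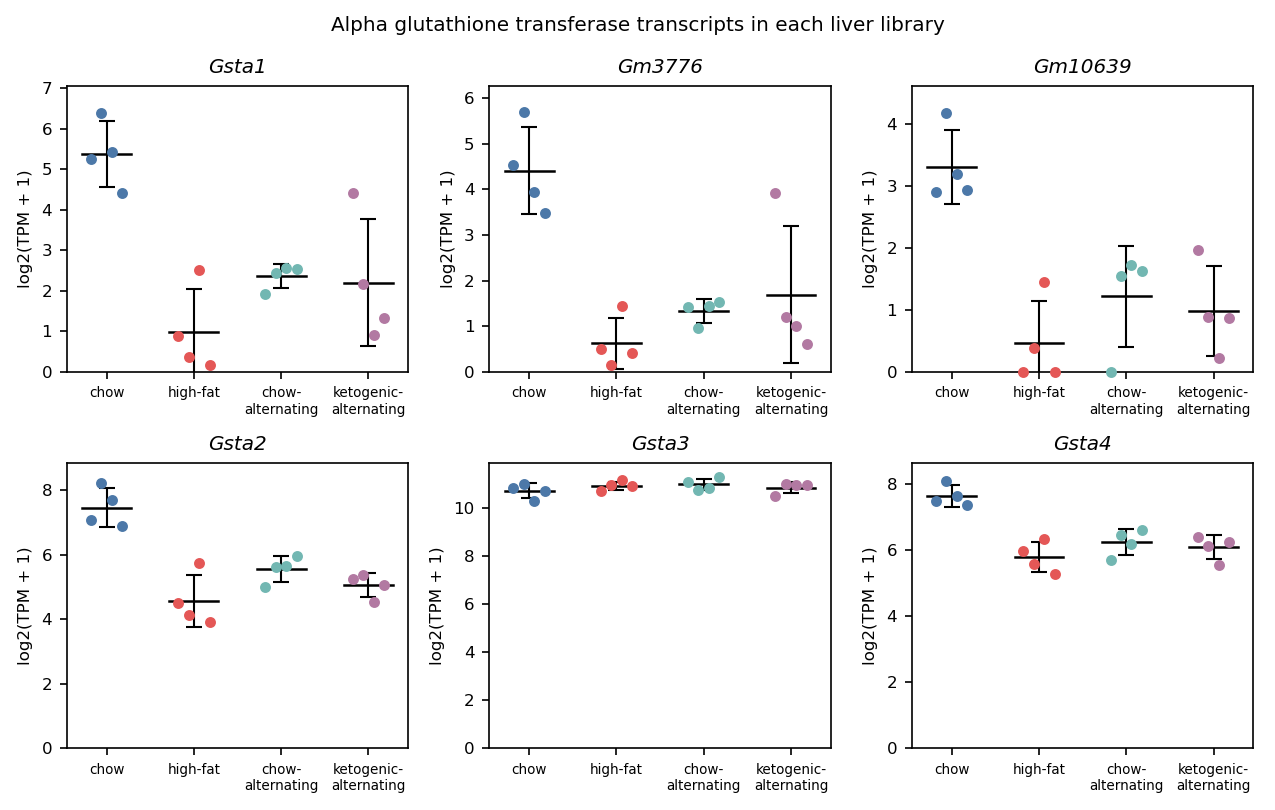
Level of each member as log2(TPM + 1) in every library, with a point per library, a bar for the group mean and whiskers for its SD (n = 4). In 5 of the 6 genes the chow libraries stand above the high-fat libraries with no overlap, and Gsta3 is at a similar height in every group.

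What continuous high-fat feeding did to these genes was asked by setting that group against chow. In high-fat livers 5 of the 6 members fell, and Gsta3 did not pass the test. The 5 stood far below chow: in mean TPM Gsta1 was 30.5-fold, Gm3776 37.9-fold, Gm10639 18.6-fold, Gsta2 7.20-fold and Gsta4 3.57-fold lower. The folds of the 3 lowest genes rest on high-fat replicate 3, without which they were 107-fold, 85.1-fold and 93.2-fold. Those of Gsta2 and Gsta4 were 10.8-fold and 4.14-fold without it. Without chow replicate 2 the folds of the 5 genes, in the order above, were 22.1, 24.2, 13.8, 5.82 and 3.16. Over all 10960 genes tested, 0.484% fell at the same threshold (limma on log2(TPM + 1), Benjamini-Hochberg adjusted p below 0.05). Groups did not overlap, with high-fat lower, in those same 5 genes, against 5.73% of the genes tested. In bulk liver, fewer cells that express a gene and less RNA per cell cannot be told apart.

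Gsta1, an enzyme of broad substrate range, was at 37.0, 83.4, 42.4 and 20.5 TPM in chow replicates 1 to 4, and at 0.857, 0.298, 4.73 and 0.126 TPM in the high-fat libraries. The lowest chow library was thus above the highest high-fat library, replicate 3, which also stood apart from the other high-fat libraries. The log2 fold change was -4.39 (SE 0.510, adjusted p = 0.00313).

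Gm3776, the near copy of Gsta1, was at 22.0, 50.4, 14.2 and 10.1 TPM in chow and at 0.404, 0.116, 1.70 and 0.333 TPM in high-fat liver, which gave -3.78 as the log2 fold change (SE 0.432, adjusted p = 0.00296). Gm10639 was at 6.46, 17, 8.11 and 6.62 TPM in chow and at 0, 0.307, 1.74 and 0 TPM in high-fat liver, and its log2 fold change was -2.84 (SE 0.366, adjusted p = 0.00557). Both genes were highest in chow replicate 2 and, within the high-fat group, in replicate 3, as was Gsta1. Fold changes on the log2(TPM + 1) scale understate the change of genes near 1 TPM, and the 0 values of Gm10639 could be failed estimates.

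Gsta2, the most abundant of the neighbours, was at 133, 296, 205 and 117 TPM in chow and at 21.5, 16.6, 52.1 and 14.2 TPM in high-fat liver (log2 fold change -2.89, SE 0.390, adjusted p = 0.00666). The summed TPM of the 4 neighbours depends on how reads were divided between them only through differences in transcript length. It was 198.8, 447, 269.9 and 154 in chow and 22.8, 17.3, 60.3 and 14.7 in high-fat liver. That sum was 9.30-fold lower in mean TPM (14.7-fold without high-fat replicate 3) and its groups did not overlap. Within the sum, Gsta2 held 71.3% ± 5.37 in chow and 93.4% ± 4.75 in high-fat liver.

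Gsta4, the 4-hydroxynonenal enzyme, lies next to this cluster but shares no read-length window with it. It was at 178, 271, 195 and 162 TPM in chow and at 61.5, 46.7, 79.5 and 37.7 TPM in high-fat liver (log2 fold change -1.85, SE 0.243, adjusted p = 0.00588). The highest high-fat library, again replicate 3, reached less than the lowest chow library.

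Gsta3, at 1834, 2059, 1255 and 1683 TPM in chow and 1688, 1967, 2263 and 1913 TPM in high-fat liver, had overlapping groups. Its log2 fold change was 0.21 with a 95% interval from -0.198 to 0.623 (adjusted p = 0.764). Because Gsta3 is so abundant, the summed TPM of all 6 members was 2177 ± 448 in chow and 2043 ± 264 in high-fat liver, with overlapping ranges.

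Leaving out any 1 of the 8 libraries kept the adjusted p of the 5 lower genes between 6.66e-04 and 0.0364. Without 4 libraries whose 20 top genes took more than 33% of TPM (chow replicates 2 and 3, high-fat replicates 1 and 2), a fit chosen after seeing the data, 0 of 3 testable members passed in limma. In that fit of 2 against 2, Gsta2 had a log2 fold change of -2.15 (adjusted p = 0.156) and Gsta4 of -1.61 (adjusted p = 0.124), and Gsta1, Gm3776 and Gm10639 missed the filter of 1 TPM in 4 libraries.

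**Figure D2:**
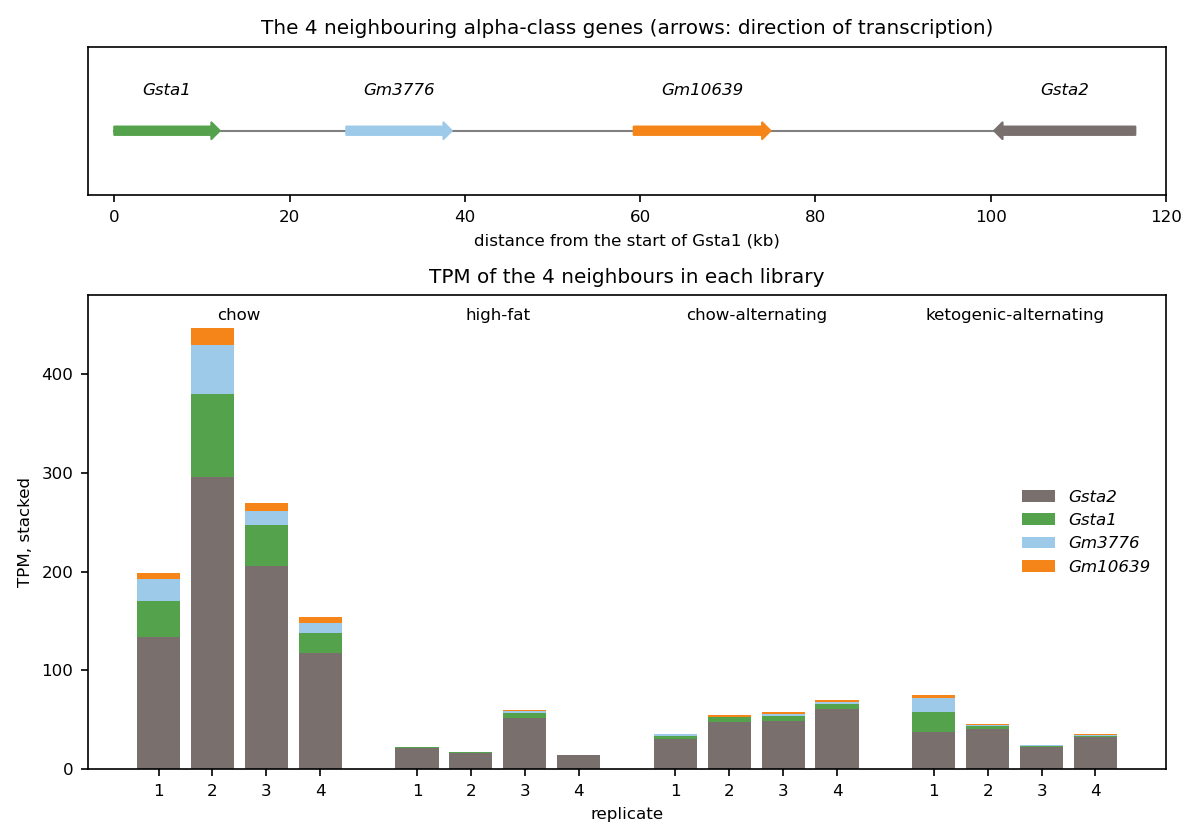
Top, the 4 neighbouring genes drawn to scale by distance in kb from the start of Gsta1, with arrows in the direction of transcription. Bottom, their stacked TPM in each library: the chow libraries reach 154 to 447 TPM in all, every other library is below 75 TPM, and Gsta2 is the largest part of each bar.

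The chow-alternating and ketogenic-alternating groups were then compared with continuous chow, to ask how these genes stood when high-fat feeding was interrupted. In chow-alternating livers 5 of 6 members were lower than in chow (background of lower genes 0.516%), and in ketogenic-alternating livers the same 5 (background 1.33%). Ranges did not overlap, with chow higher, in all 5 for the chow-alternating group (5.54% of genes tested) and in 4 for the ketogenic-alternating group, all but Gm3776 (3.98%). In both comparisons these were Gsta1, Gm3776, Gm10639, Gsta2 and Gsta4, and Gsta3 did not pass. The comparisons with chow share the chow libraries, so they are not independent of each other or of the high-fat comparison.

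With chow intervals, Gsta1 was at 2.79, 4.44, 4.92 and 4.77 TPM, a log2 fold change from chow of -3.01 (SE 0.335, adjusted p = 0.00447). Gm3776 was at 1.66, 0.937, 1.72 and 1.91 TPM (log2 fold change -3.07, SE 0.381, adjusted p = 0.00516) and Gsta2 at 30.9, 47.8, 49.1 and 61.1 TPM (-1.91, SE 0.283, adjusted p = 0.0110). All 4 libraries of each gene lay below every chow library. Gsta4 was at 50.8, 86.7, 71.5 and 95.5 TPM (log2 fold change -1.40, SE 0.211, adjusted p = 0.0113), also without overlap. Gm10639, at 0, 1.91, 2.28 and 2.07 TPM, passed more narrowly (-2.08, SE 0.389, adjusted p = 0.0293). Its call was lost without chow replicate 2, 3 or 4 or chow-alternating replicate 2, 3 or 4, with adjusted p from 0.0542 to 0.0777, and with a pseudocount of 0.1 in place of 1 (adjusted p = 0.140). With no filter on low values, when 16764 genes were tested, none of the 6 passed in limma, and the adjusted p of the 5 lower genes was 0.0543 to 0.132.

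With ketogenic intervals, Gsta2 was at 37.4, 40.3, 22.2 and 32.4 TPM (log2 fold change from chow -2.41, SE 0.280, adjusted p = 0.00122) and Gsta4 at 82.6, 67.9, 46.0 and 74.8 TPM (-1.56, SE 0.207, adjusted p = 0.00181). Gm10639 was at 2.92, 0.847, 0.169 and 0.817 TPM (-2.31, SE 0.369, adjusted p = 0.00534). All 3 were below every chow library. Gsta1 was at 20.2, 3.49, 0.872 and 1.52 TPM and Gm3776 at 14.0, 1.32, 1.02 and 0.531 TPM. Replicate 1 stood apart in both: its Gsta1 value lay just under the 20.5 TPM of the lowest chow library and its Gm3776 value overlapped the chow range. Gsta1 had a log2 fold change from chow of -3.17 (SE 0.651, adjusted p = 0.0182) and Gm3776 of -2.72 (SE 0.660, adjusted p = 0.0382). Without ketogenic-alternating replicate 1 these became -3.91 and -3.46. The Gsta1 call was lost without chow replicate 2 or 3 or ketogenic-alternating replicate 2 or 3 (adjusted p 0.0509 to 0.0632), and that of Gm3776 without replicate 2, 3 or 4 of either group (0.0525 to 0.121). With no filter on low values, 3 members passed, and without the libraries over 33% in 20 genes 2 of the 5 testable did.

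Gsta3 was at 2168, 1717, 1809 and 2481 TPM with chow intervals and at 1435, 2071, 1983 and 1962 TPM with ketogenic intervals. Both groups overlapped chow, with log2 fold changes of 0.27 (95% interval -0.109 to 0.642) and 0.13 (-0.260 to 0.527). The latter turned to -0.041 when libraries were scaled by their median ratio, which moved the median of all genes in that comparison from 0.152 to 0.00259. The 5 lower genes kept their direction and their calls under this scaling in each comparison with chow.

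Among the 3 regimens that contained high-fat diet, no member passed. Between the chow-alternating and high-fat groups 0 of 6 passed in limma (background 0.0459% of 10899 genes), with 3 at an unadjusted p below 0.05, against 4.15% of all genes at that level. The log2 fold changes were 1.38 for Gsta1 (95% interval 0.454 to 2.30, adjusted p = 0.982), 0.71 for Gm3776 (0.142 to 1.29), 0.76 for Gm10639 (-0.133 to 1.65), 0.98 for Gsta2 (0.226 to 1.73), 0.05 for Gsta3 (-0.291 to 0.400) and 0.44 for Gsta4 (-0.0944 to 0.980). The ranges overlapped in all 6 genes, while 3.02% of genes tested did not overlap. Without high-fat replicate 3, the highest of its group in Gsta1, Gm3776, Gm10639, Gsta2 and Gsta4, Gsta1 (1.89, adjusted p = 0.00422) and Gsta2 (1.37, adjusted p = 0.0368) passed. That fit called 32 genes in place of 5.

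Between the ketogenic-alternating and high-fat groups 0 of 5 tested members passed (background 0.0360%), and 0 had an unadjusted p below 0.05, against 10.05% of all genes. The interval for Gsta1 ran from -0.308 to 2.74, for Gsta2 from -0.265 to 1.24 and for Gsta4 from -0.244 to 0.816, and all 3 include both signs. Ranges overlapped in each member (6.85% of genes tested did not). Gm10639 did not reach 1 TPM in 4 of these 8 libraries and was not tested. Between the ketogenic-alternating and chow-alternating groups 0 of 6 passed (background 5.04%) and 1, Gsta2, had an unadjusted p below 0.05, against 29.1% of all genes (log2 fold change -0.50, 95% interval -0.979 to -0.0119, adjusted p = 0.165). Again the ranges of all 6 overlapped, against 16.8% of genes that did not.

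In mean TPM the order was chow, chow-alternating, ketogenic-alternating and high-fat for Gsta2 (188, 47.2, 33.1 and 26.1) and Gsta4 (201, 76.1, 67.8 and 56.4). For Gsta1 (45.8, 4.23, 6.53 and 1.503) and Gm3776 (24.2, 1.56, 4.22 and 0.639) the ketogenic-alternating mean was above the chow-alternating one, with replicate 1 far above the rest of its group. Gm10639 (9.55, 1.57, 1.19 and 0.512) had the order of Gsta2. In these 5 genes only the differences from chow passed the test, and the ranges of the other 3 groups overlapped. When regimens with chow (chow and chow-alternating) were set against those without it, in 1 fit of 16 libraries, 5 of 6 members were higher with chow (background of higher genes 1.26%). The log2 difference was 2.27 for Gsta1 (SE 0.441, adjusted p = 0.00726), 1.69 for Gsta2 (SE 0.248, adjusted p = 9.07e-04) and 1.00 for Gsta4 (SE 0.174, adjusted p = 0.00342). Gm10639 (1.53, adjusted p = 0.00909) and Gm3776 (1.72, adjusted p = 0.0230) passed as well. This contrast was chosen with earlier results of these data known, so it describes a known pattern. It pools the chow and chow-alternating groups, and how much each adds was not tested apart from the pairwise comparisons above. In those, no member passed between chow-alternating liver and either high-fat or ketogenic-alternating liver. The call of Gm3776 was lost without ketogenic-alternating replicate 2 or 3 (adjusted p = 0.0548 and 0.0570) and with no filter on low values (0.0641), that of Gm10639 with a pseudocount of 0.1 (0.0639), and without the libraries over 33% in 20 genes 2 members, Gsta2 and Gsta4, passed.

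**Figure D3:**
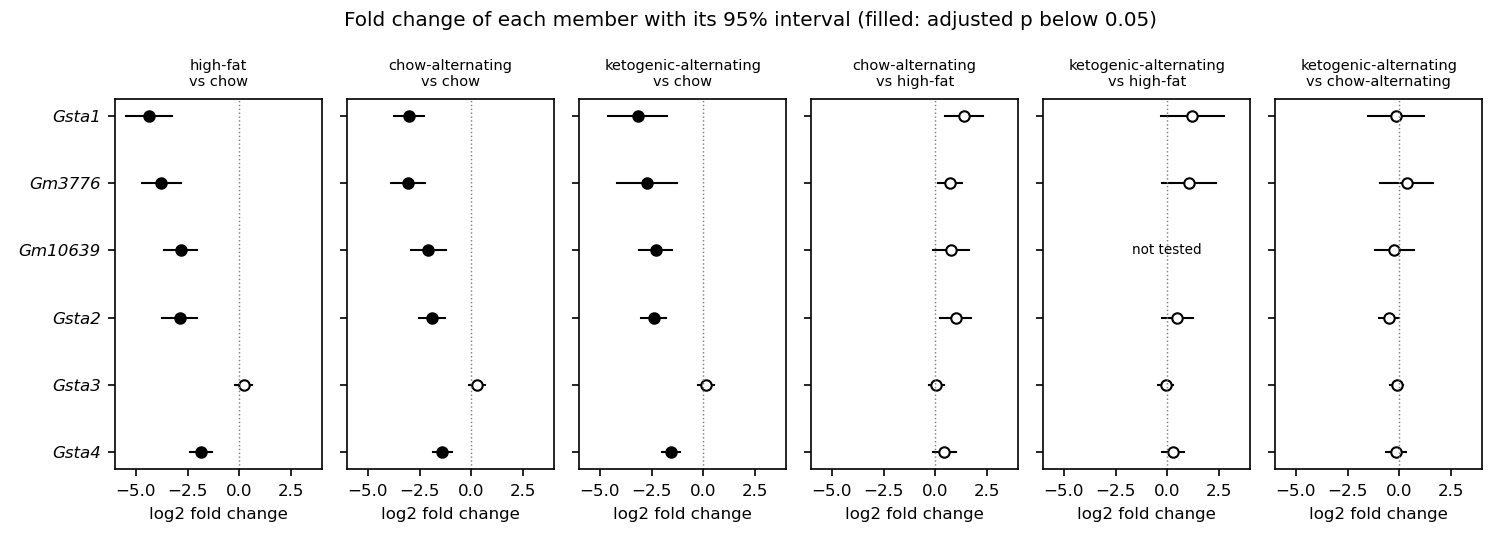
Log2 fold change of each member on the log2(TPM + 1) scale in 6 comparisons, as limma estimates (points) with 95% intervals (lines); filled points passed at an adjusted p below 0.05. In the 3 comparisons with chow 5 members lie left of 0 and are filled, and in the other 3 no point is filled.

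The deposited transcript table showed which isoforms carried these values. For Gsta1, ENSMUST00000098537 held 99.7% of the gene's TPM in chow and 99.65% in high-fat liver. In chow-alternating replicate 1 it was at 0.587 TPM, within the high-fat range of that transcript (0.126 to 4.71 TPM). There ENSMUST00000127192 held 2.20 TPM, against at most 0.305 TPM in the other 15 libraries. All Gsta4 signal came from ENSMUST00000034903, and ENSMUST00000213215, the transcript by which the gene table lists it, was at 0 in every library. In Gsta2, ENSMUST00000034902 held 80.0% of the gene's TPM in chow and 59.6% in high-fat liver, falling from a mean of 150.3 to 15.6 TPM. Its isoforms ENSMUST00000129247 and ENSMUST00000125479 went from 25.4 to 6.37 and from 12.2 to 4.07 TPM, so all 3 were lower in high-fat liver. Gsta3 was made of ENSMUST00000027067 (75.3% in chow, 69.2% in high-fat), ENSMUST00000121676 (15.5% and 20.4%) and ENSMUST00000124990 (9.10% and 10.2%). For Gm10639, ENSMUST00000126625 was listed at 15.2 TPM in chow replicate 2 and at 0 in the other 15 libraries. In that library the gene's 17 TPM were made of this transcript and of ENSMUST00000119823 at 1.81 TPM, which was at 6.46 to 8.11 TPM in the other 3 chow libraries. These shares are estimates given without a test.

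Genes around the alpha class in the glutathione pathway were followed in lists chosen with earlier results of these data known. Among 18 tested transferases of other classes, 4 fell in high-fat liver (0.484% of all genes) and none rose (0.575%), with a median log2 fold change of -0.38 against -0.05 over all genes. The mu-class Gstm1 was at 3601 ± 1387 TPM in chow and 958.7 ± 282 TPM in high-fat liver, -1.88 on the log2 scale (adjusted p = 0.0130). The pi-class Gstp1 was at 5120 ± 578 and 1806 ± 767 TPM (-1.59, adjusted p = 0.0153). Gstp2 had a log2 fold change of -1.59 (adjusted p = 0.0402) and Gstm3 of -2.36 (adjusted p = 0.0441). Gstp1 and Gstp2 are themselves close copies, whose split is uncertain. In the ketogenic-alternating group 5 of 18 were lower than in chow (1.33% of all genes) and in the chow-alternating group 2 of 18, Gstm1 and Gstp1 (0.516%). Median-ratio scaling of the lists was added after seeing the data. With it 1 of 18 passed in high-fat liver, Gstm1, and the counts in the ketogenic-alternating and chow-alternating groups were 4 and 0. Of all genes, 62, 349 and 58 were lower in these 3 groups with that scaling. Between the alternating groups 4 of 18 were lower with ketogenic intervals (80 of all 11002 genes). These were Gstm1 (-0.57, adjusted p = 0.0183), Gstm2 (-0.99, adjusted p = 0.00735), Gstm6 (-0.84, adjusted p = 0.00202) and Gstp2 (-0.83, adjusted p = 0.0406). The same 4 passed with that scaling (177 of all genes). Against high-fat, 0 of 18 passed in either alternating group.

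In high-fat against chow liver 0.484% of all genes fell and 0.575% rose. At these shares, 0 passing in a short list does not show that its genes were unchanged. Genes that make or recycle glutathione did not pass in that comparison (0 of 11 in limma). Their most abundant members were Gpx1, a glutathione peroxidase, at 2784 ± 481 and 2634 ± 307 TPM (log2 fold change -0.07, adjusted p = 0.956), and Cth, which makes cysteine, at 638 ± 131 and 319 ± 143 TPM (-1.06, adjusted p = 0.110). Of 13 NRF2 targets outside the transferases 0 passed in this comparison. Ephx1, an epoxide hydrolase, had a log2 fold change of -0.63 (adjusted p = 0.140) and Osgin1 of -0.19 (adjusted p = 0.949). Nqo1, a quinone reductase and textbook NRF2 target, was at 9.25 ± 4.21, 6.71 ± 2.59, 8.23 ± 0.391 and 10.5 ± 2.03 TPM in chow, high-fat, chow-alternating and ketogenic-alternating liver (-0.39 in high-fat against chow, adjusted p = 0.707). Of 15 regulators 0 passed in high-fat against chow, among them Hnf4a (-0.46, adjusted p = 0.669) and the xenobiotic sensor Nr1i3 (0.37, adjusted p = 0.608). The conjugate exporters Abcc2 (0.08, adjusted p = 0.963) and Abcc3 (-0.44, adjusted p = 0.498) were in a list of 6 tested with 0 passing.

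In other comparisons some genes of these lists did pass. Against chow, 2 of 14 NRF2 targets were lower in chow-alternating liver (0.516% of all genes): Gclc, which starts glutathione synthesis and is in both lists (-0.81, adjusted p = 0.0407), and Ephx1 (-0.67, adjusted p = 0.0242). In ketogenic-alternating against chow liver 0 of 14 passed. In ketogenic-alternating against chow-alternating liver 4 of 14 were higher (4.31% of all genes), namely Srxn1 (1.06, adjusted p = 0.0185), Gclc (0.53, adjusted p = 0.0198), Ephx1 (0.50, adjusted p = 0.0266) and Ugdh (0.47, adjusted p = 0.0418). With median-ratio scaling 1 was, Srxn1 (129 of all genes). There 3 of 11 genes that make or recycle glutathione were higher too, and 0 with that scaling. Of 15 regulators 4 were higher in ketogenic-alternating than in chow liver (407 of all 11091 genes). They were Maff (1.16, adjusted p = 0.0097), Ahr (1.015, adjusted p = 0.0105), Mafk (0.79, adjusted p = 0.0299) and Keap1 (0.65, adjusted p = 0.0475). With median-ratio scaling 5 were, these 4 and Bach1 (400 of all genes). Between the alternating groups 2 of 15, Mafg and Rxra, were higher with ketogenic intervals (4.31% of all genes), and 0 with that scaling.

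Among enzymes that remove lipid aldehydes, 1 of 10 tested fell in high-fat liver (0.484% of all genes) and none rose (0.575%). Cbr1, a carbonyl reductase, was at 179 ± 41.3 TPM in chow and fell to 71.6 ± 19.6 TPM (-1.31 on the log2 scale, adjusted p = 0.0210). In ketogenic-alternating against chow liver 1 of 11 was lower, Cbr1 (-1.01, adjusted p = 0.0148), against 1.33% of all genes. There 1 was higher, Aldh3a2 (1.35, adjusted p = 0.00246), against 407 of 11091 genes. Aldh3a2 was also higher than in chow-alternating liver (1.48, adjusted p = 3.27e-04), as 1 of 11 (4.31% of all genes). In high-fat against chow liver, 4 of 8 tested targets of the xenobiotic sensors CAR, PXR and AHR fell (0.484% of all genes). Their median was -0.84 against -0.05 over all genes. These were Cyp2b10 (-2.92, adjusted p = 0.00196), Cyp3a11 (-2.29, adjusted p = 0.00557), Cyp2c55 (-1.69, adjusted p = 0.0120) and Cyp2c29 (-1.06, adjusted p = 0.0306), all P450 enzymes. Cyp2b10, which CAR controls, was at 12.3 ± 6.47 TPM in chow, 0.684 ± 0.473 in high-fat, 8.62 ± 2.60 in chow-alternating and 0.302 ± 0.249 in ketogenic-alternating liver. Its values in the chow-alternating against the high-fat group passed the test (log2 fold change 2.52, adjusted p = 0.00117), where those of the 6 alpha-class genes did not. The difference between these genes was not itself tested. In that comparison 3 of 8 sensor targets were higher, Cyp2b10, Cyp2c29 and Cyp2c55 (3 of all 10899 genes). Between the alternating groups 3 of 8 were lower with ketogenic intervals, Cyp2b10, Cyp2c29 and Cyp3a11 (80 of 11002). The same 3 were lower in ketogenic-alternating than in chow liver (1.33%), where Por was higher (407 of 11091). Against chow, 1 of 8 was lower in chow-alternating liver, Cyp3a11 (0.516%).

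By Pearson correlation of log2(TPM + 1) over the 16 libraries, among 7542 named genes with a mean of at least 5 TPM, the genes most like the sum of the 4 neighbours were Cbr1 (r = 0.937, rho = 0.915), Gstm1 (0.927, rho = 0.797), the zinc importer Slc39a4 (0.905, rho = 0.800), Cyp3a11 (0.904, rho = 0.871), Amdhd1 of histidine breakdown (0.903, rho = 0.856) and Etnppl, a lyase of phosphoethanolamine (0.890, rho = 0.876). They were picked for this likeness, so no p is given, and the 16 points fall into the 4 diet groups, with chow highest. Without the 2 libraries farthest from the median of the sum, r was 0.827 to 0.921, and for deviations from the group means it was 0.661 to 0.786. For Gsta4 the nearest were Gstm1 (r = 0.929, rho = 0.812), Cbr1 (0.921, rho = 0.912) and Cyp3a11 (0.903, rho = 0.891). For Gsta3, whose levels differed little between groups, they were the pyruvate dehydrogenase kinase Pdk1 (r = 0.883, rho = 0.788), the acetyl-CoA synthetase Acss2 (0.817, rho = 0.821) and the carboxylesterase Ces1g (0.803, rho = 0.756). Without the 2 libraries farthest from the median of Gsta3, their r fell to 0.773, 0.643 and 0.6865. For deviations from the group means it was 0.866, 0.832 and 0.822.

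**Figure D4:**
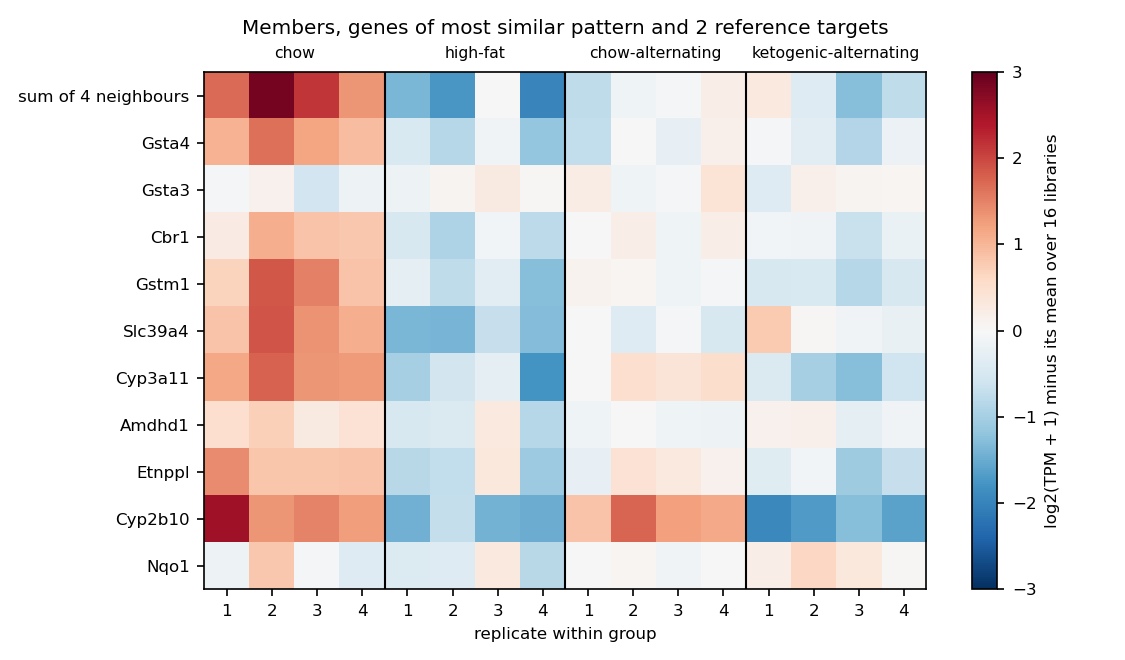
Log2(TPM + 1) of each gene minus its own mean over the 16 libraries, for the sum of the 4 neighbours, Gsta4, Gsta3, the 6 genes most like the sum, and Cyp2b10 and Nqo1. The sum, Gsta4 and the 6 similar genes are above their means in all 4 chow columns and mostly pale or blue elsewhere. In chow, Cbr1 in replicate 1 (0.237) and Amdhd1 in replicate 3 (0.268) are pale. Slc39a4 is also above its mean in ketogenic-alternating replicate 1 (0.791). Cyp2b10 is red in the chow and chow-alternating columns, and Gsta3 and Nqo1 show no such block.

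How deeply each library was sequenced cannot be read from TPM. Between 10575 and 11695 genes per library reached 1 TPM. Mitochondrial genes held 10.2% to 18.4% of TPM in chow libraries and 8.61% to 11.1% in the others, overlapping ranges, and their part in the differences from chow was not tested. Hepatocyte markers were present in full (8 of 8, summed TPM 87569 to 121190 over all libraries), as the liver label implies. Markers of pericentral hepatocytes (8 of 8 reaching 1 TPM) summed to 6285 to 7369 TPM in chow and 8493 to 11621 in high-fat liver, without overlap, and 8916 to 11575 and 9594 to 14067 in the chow-alternating and ketogenic-alternating groups. Gene by gene, 0 of 8 passed in high-fat against chow. In chow-alternating liver 3 were higher than in chow (70 of all 10862 genes), and in ketogenic-alternating liver 4 (407 of 11091). Most of the sum was Cyp2e1 (means of 4475 TPM in chow and 7180 in high-fat), while Cyp1a2 was at 478 and 319 TPM and Rgn at 814 and 816. Summed markers of periportal hepatocytes overlapped between chow (6231 to 8385) and both high-fat (3344 to 7198) and chow-alternating liver (4635 to 6624). In the ketogenic-alternating group they were 4222 to 5965, below every chow library. Of these 8 genes, 2 were lower than chow in ketogenic-alternating liver (1.33% of all genes) and 0 in the other 2 groups. With median-ratio scaling 5 were lower in ketogenic-alternating, 1 in high-fat and 0 in chow-alternating liver. Of all genes, 349, 62 and 58 were lower with that scaling, against 148, 53 and 56 without it. The part of pericentral and periportal markers in the results was not tested. Adipocyte markers were 52.1 to 83.8 TPM in the ketogenic-alternating group and 1.29 to 13.7 elsewhere, through Cidec and Cfd, and Lep was at 0 in every library. Of 6 markers of exocrine pancreas 3 were at 0 everywhere and 1, Cela1, reached 1 TPM.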

How the data were processed

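RNA was sequenced from 16 mouse liver libraries, 4 per diet group. Per the labels' design text, reads were mapped to mm10 with HISAT2 and expression was calculated with RSEM 1.1.17 as FPKM. The deposited gene and transcript tables instead hold TPM, since each column sums to 1000000 and the authors' conversion is not given in the sources used here. All 16 columns were matched by name, and 0 were left unmapped.

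The test had been planned for either unit. On the scale log2(TPM + 1), limma 3.58.1 in R 4.3.3 compared the 8 libraries of each pair of groups, modelling the variance trend with intensity. A gene entered if 4 or more of those libraries reached 1 TPM, with Benjamini-Hochberg adjustment over all genes tested. A member had changed at an adjusted p below 0.05. Summed TPM was given without a test. Members, lists, the contrast of regimens with and without chow, and the rule for named genes were chosen with earlier results of these data known. That rule named all 6 members, Cyp2b10, Nqo1 and the most similar genes. From each list it named up to 4 genes that passed in high-fat against chow, or else the 2 most abundant. Some genes that passed in other comparisons were named outside this rule. Alternatives were another pseudocount (0.1), no filter or 5 TPM, median-ratio scaling, no trend, a replicate block, 1 fit of 16 libraries and leaving out libraries. Promoter sequence came from RefSeq on GRCm38.p6 and transcript sequence from GENCODE M21.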

Additional observations from a re-analysis of the deposited data

Results flagged for a closer look

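Groups of 4 values were checked by a gap test, for the 6 members and the sum of the 4 neighbours in each diet group. In 5 of 28 groups 1 library lay farther from the others than that test allows. The gaps were taken on TPM, not on log2(TPM + 1). The test's rate of about 1 group in 20 holds for independent, normally distributed values. Neighbours share reads and enter the sum, so this rate gives no expected number here. Ketogenic-alternating replicate 1 was at 20.2 TPM for Gsta1, against 0.872 to 3.49 TPM in the other 3 libraries of its group, and at 14.0 TPM for Gm3776, against 0.531 to 1.32 TPM. High-fat replicate 3 was at 4.73 TPM for Gsta1, against 0.126 to 0.857 TPM. Chow replicate 2 was at 17 TPM for Gm10639, against 6.46 to 8.11 TPM, and chow-alternating replicate 1 was at 0 TPM for the same gene, against 1.91 to 2.28 TPM.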

How the results depend on the processing

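Of the counts of changed members, 5 of 6 in high-fat against chow held in each single alternative that was planned and became 0 of 3 testable members only without the 4 libraries over 33% in 20 genes. That alternative also gave 2 in ketogenic-alternating against chow and 2 in regimens with against without chow. In chow-alternating against chow it gave 4, losing Gm10639 (adjusted p = 0.113). With no filter on low values the counts were 0 in chow-alternating and 3 in ketogenic-alternating against chow, with more genes tested. Leaving out 1 library gave counts of 0 to 2 in chow-alternating against high-fat and 3 to 5 in ketogenic-alternating against chow. Directions turned only for differences that had not passed. For Gsta3 the log2 fold change ranged, without 1 library, from -0.0441 to 0.133 in chow-alternating and from -0.147 to 0.0420 in ketogenic-alternating against high-fat, from -0.00658 to 0.254 in ketogenic-alternating against chow and from -0.100 to 0.0305 in regimens with against without chow. It was -0.0413 in chow-alternating against high-fat without the 4 libraries, and under median-ratio scaling -0.0410 in ketogenic-alternating against chow and 0.0379 in regimens with against without chow. In ketogenic-alternating against chow-alternating the ranges without 1 library were -0.897 to 0.271 for Gsta1, -0.391 to 0.707 for Gm3776, -0.639 to 0.0203 for Gm10639 and -0.336 to 0.0154 for Gsta4. The causes were not tested. Over all genes, the number passing in high-fat against chow was 116 and ran from 19 without the 4 libraries to 380 with 16 libraries in 1 fit. It was 126 (3 with no filter to 242) in chow-alternating against chow, 555 (181 to 1620) in ketogenic-alternating against chow, 5 (1 to 32) and 4 (1 to 22) in the chow-alternating and ketogenic-alternating groups against high-fat, 554 (97 to 2513) between the alternating groups and 419 (226 to 656) for regimens with against without chow. Median-ratio scaling moved the share of higher genes among those passing from 85.6% to 42.2% between the alternating groups, from 73.3% to 53.4% in ketogenic-alternating and from 55.6% to 71.1% in chow-alternating against chow, from 34.4% to 44.8% for regimens with against without chow and from 60% to 75% in chow-alternating against high-fat. Among same-numbered pairs of libraries across groups, 4 of 24 had deviations from the group means correlated above 0.1, with a median r of -0.00522. Of differently numbered pairs 18 of 72 did, with a median of -0.00715. Deviations sum to 0 within each group, so this check cannot exclude that replicate numbers pair the libraries. With the replicate block 5 members passed in each comparison with chow and for regimens with against without chow, and 0 in the other 3 comparisons. The block moved the number of genes passing from 116 to 43 in high-fat against chow, from 5 to 12 in chow-alternating against high-fat and from 554 to 181 between the alternating groups. Without counts, depth sets no limit that can be given.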
